A study of Mus musculus with 8 samples.

Results

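The Ms4a genes encode small proteins that cross the cell membrane 4 times, and in the mouse they lie side by side on chromosome 19. Rows of the array were taken as members when the platform annotation gave them a single gene symbol that starts with Ms4a, which found 12 genes among 14860 genes with a row of their own. They were Ms4a6d, Ms4a6b, Ms4a6c, Ms4a4d, Ms4a4b, Ms4a1, Ms4a2, Ms4a3, Ms4a5, Ms4a10, Ms4a13 and Ms4a19, each with 1 row. A further 2 rows carried several symbols, Ms4a7 with Ms4a14 and Ms4a4c with Ms4a4d, and are given apart because they cannot be assigned to a gene. The family was taken up because Ms4a6d stood among the rows with the smallest p between diets, so the differences between diets below are descriptions and support nothing about the family.

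The samples were gastrocnemius, the large calf muscle, of male C57BL/6 mice 12 weeks old. The mice ate standard chow for 5 weeks, plain in the control group or with 0.27% ursolic acid, a triterpenoid of fruit peel, mixed into the chow in the other group. Each sample was RNA pooled from 2 mice, with 4 samples per group and 8 arrays in all, each a log2 expression value for 16755 rows. The labels do not say whether a mouse entered more than 1 pool, so the spread between samples may be partly technical.

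Samples were grouped by title, which names the same diet as the treatment field in every sample. In 4 samples the free-text description names the other diet, namely control samples 2 and 4, described as treated, and samples 1 and 3 of the ursolic acid group, described as untreated. Differences are therefore also given for groups taken from the description. Each of those groups holds equal numbers of control and ursolic acid samples by title, so a difference by title cancels in them, and the reverse. Array medians lay between 5.55 and 5.61, and each array's mean Spearman correlation with the rest was 0.983 to 0.986, except 0.977 in control sample 1. Of the 9 measured markers of muscle fibres, among them Ckm and Acta1, mean values ran from 10.04 to 12.48, and none differed between diets at an unadjusted p of 0.05. The files give no signal above background for a row, and values of different rows are not taken as amounts of RNA because probes differ in brightness. The lower quartile of the arrays was 4.70 to 4.81. All values of Ms4a6d, Ms4a4b, Ms4a1, Ms4a2, Ms4a3, Ms4a5, Ms4a13 and Ms4a19 lay below it. Whether these dim rows exceed background was not tested.

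Members of the family are best known from blood cells. Ms4a1 encodes CD20 of B cells, and Ms4a2 encodes the beta chain of the high-affinity IgE receptor, which mast cells and basophils carry and which amplifies the signal of that receptor. Ms4a6b, Ms4a6c, Ms4a6d and Ms4a7 are expressed in mouse macrophages and related myeloid cells, Ms4a4b and Ms4a6b also in mouse T cells, and Ms4a3 in myeloid progenitors. Muscle holds such leukocytes between its fibres, and in pooled tissue RNA more cells of a type cannot be told apart from more RNA per cell.

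The upstream sequences of Ms4a6c and Ms4a6b are shown because these neighbouring genes varied most alike of any pair of members. The RefSeq promoter table of build GRCm38.p6 holds 10 of the 12 genes. Ms4a6d and Ms4a1 were not matched. Each sequence is the 250 bases before the annotated start, on the plus strand, and capitals mark every stretch of 15 or more bases that is identical in both. Ms4a6c lies at chr19:11469118-11469367 and Ms4a6b at chr19:11518309-11518558.
Ms4a6c: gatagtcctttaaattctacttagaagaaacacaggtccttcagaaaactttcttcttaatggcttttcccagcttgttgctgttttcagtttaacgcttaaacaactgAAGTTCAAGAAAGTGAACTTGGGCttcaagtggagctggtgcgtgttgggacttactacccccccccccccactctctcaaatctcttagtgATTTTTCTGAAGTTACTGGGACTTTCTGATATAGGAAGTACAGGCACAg
Ms4a6b: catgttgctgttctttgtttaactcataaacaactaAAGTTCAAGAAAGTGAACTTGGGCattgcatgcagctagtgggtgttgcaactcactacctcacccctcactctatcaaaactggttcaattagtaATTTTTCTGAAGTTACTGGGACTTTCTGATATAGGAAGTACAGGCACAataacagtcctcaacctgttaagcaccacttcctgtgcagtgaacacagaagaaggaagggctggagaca

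The shared stretches were 24 and 48 bases long. The longer stretch lay at −49 to −2 from the annotated start of Ms4a6c and at −118 to −71 from that of Ms4a6b, so the same sequence sits at different distances from the starts. A local alignment matched 151 of 181 positions, or 83.4%. Local alignments of the other 44 pairs of the 10 promoters spanned at most 119 positions. Some short ones matched a higher share, such as 10 of 11 for Ms4a19 with Ms4a6c. In these 44 pairs the longest shared stretch was 6 to 11 bases, with a median of 8. A global alignment of the whole windows, run first, did not set Ms4a6c and Ms4a6b apart from the rest. It matched 136 of 250 bases, or 54.4%, against 45.6% to 56.0% (median 50.8%) over all 45 pairs, and 2 pairs scored higher. The comparison of shared stretches and the local alignment were added after the sequences and that result had been seen, so they depend on the choice of method. Whether the array's probes tell the transcripts of these related genes apart was not tested.

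Few of the promoters held the short motifs searched on both strands of the same 250 bases. GAGGAA, a form of the PU.1 site of myeloid and B cells, was found in 1 of 10 (Ms4a4b, at −64 to −59) and in 23.3% of all 32851 promoters. TTGCNNAA, a form of the C/EBP site, was found in Ms4a5 and in Ms4a4d (at −12 to −5, on the minus strand), against 9.56% of all promoters. TTCNNNGAA, ATTTGCAT and TGATAA, forms of the sites of STAT, octamer and GATA factors, were in 0 of the 10. Of all promoters, 7.02%, 1.60% and 7.94% held them. Only these forms were searched, so the 10 promoters may hold other forms of any of the sites named here. The counts are matches of letters in 1 window and say nothing of binding.

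Between diets, the 3 Ms4a6 genes and Ms4a4d had higher values with ursolic acid, Ms4a2 had lower ones, and the other 7 lay close to control. None of the 12 passed an adjusted p of 0.05 in the limma fit over all rows, as none of the 16755 rows did (0.0% called), with adjusted p of 0.0845 to 0.965 for the family. At an unadjusted p of 0.05, 4 of the 12 were higher, where 4.08% of all rows were, and 1 was lower, where 3.0% were. All 4 ursolic acid arrays lay above all 4 controls in 2 members (2.66% of all rows) and below them in 1 (1.83% of all rows). Since this contrast chose the family, nothing is read from these counts. The family was split evenly, with 6 genes higher, where 45.5% of all rows were, and 6 lower, and had a median log2 difference of 0.00, beside −0.01 over all genes.

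**Figure D1:**
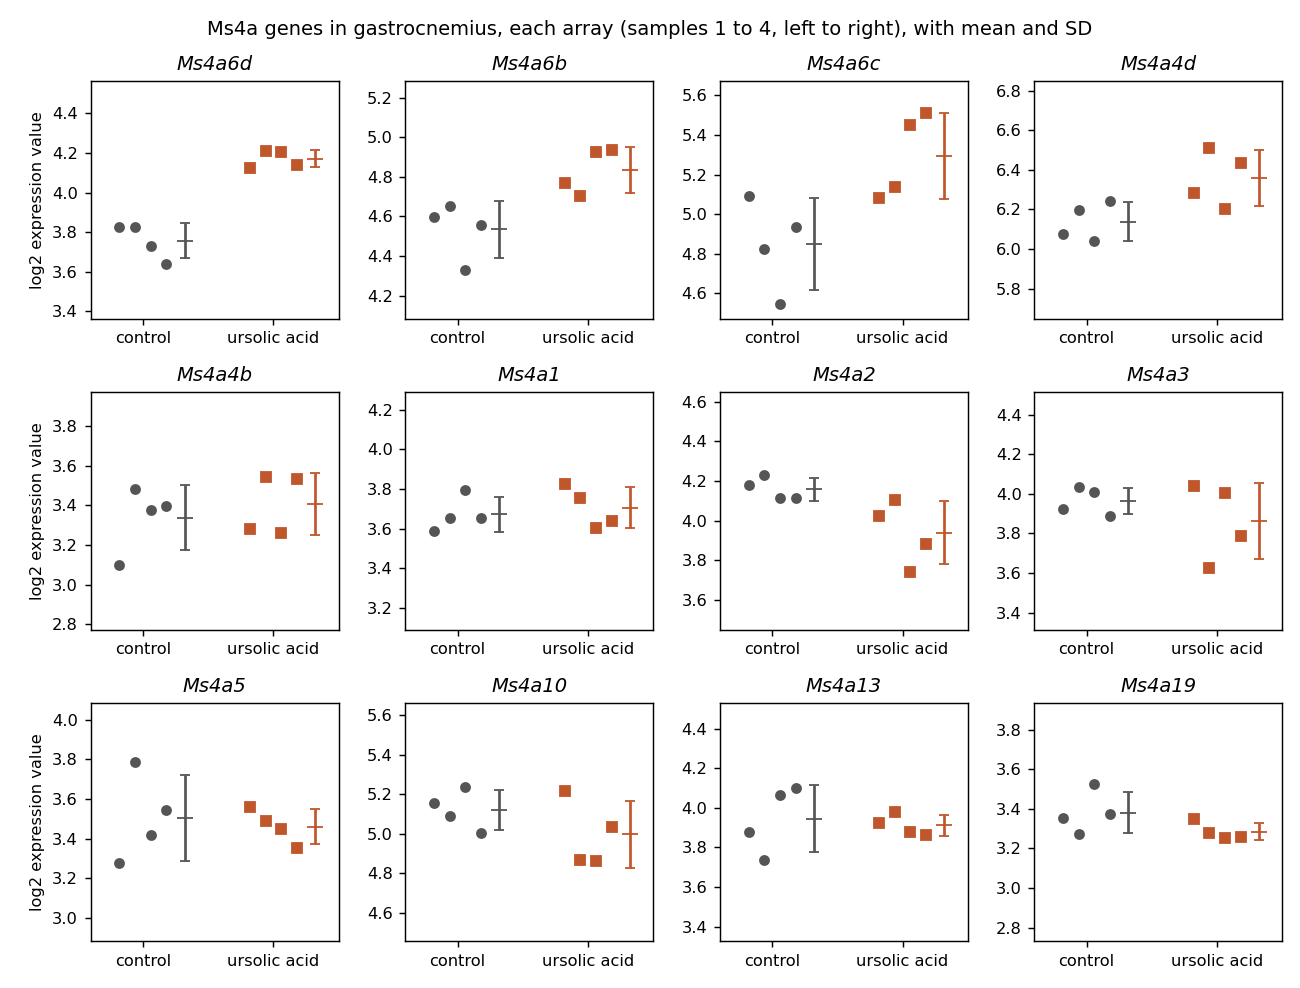
Log2 expression values of the 12 Ms4a genes in each array (circles, 4 control; squares, 4 ursolic acid; samples 1 to 4 from left to right), with the group mean and SD beside them; every panel spans the same log2 range around its own mean. The ursolic acid arrays lie wholly above the controls for Ms4a6d and Ms4a6b and wholly below them for Ms4a2.

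Ms4a6d, a myeloid member, had log2 values of 3.83, 3.82, 3.73 and 3.64 in control samples 1 to 4. With ursolic acid its values were 4.12, 4.21, 4.21 and 4.14. The groups did not overlap, and the 4 ursolic acid arrays lay closer to each other than the controls did. Means were 3.76 ± 0.089 (SD, n = 4) and 4.17 ± 0.043, a difference of 0.41 ± 0.07 (SE), or 1.33-fold with a 95% interval of 1.20 to 1.48. The limma adjusted p over all rows was 0.0845, rank 19 of 16755 by p, and this is the value that drew attention to the family. Within the samples described as untreated the difference was 0.39 and within those described as treated 0.44, while the groups taken from the description differed by −0.02.

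Ms4a6b, expressed in T cells and macrophages of the mouse, had control values of 4.60, 4.65, 4.33 and 4.56. Its ursolic acid values were 4.77, 4.70, 4.93 and 4.94. The lowest ursolic acid array, sample 2, lay just above the highest control, sample 2, and control sample 3 was the lowest of all 8. The difference was 0.30 ± 0.09 (SE), or 1.23-fold (95% interval 1.07 to 1.41). It was 0.38 within the samples described as untreated and 0.21 within those described as treated, and 0.06 between groups taken from the description.

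Ms4a6c, the neighbour of Ms4a6b that shares the stretches above, had control values of 5.09, 4.83, 4.55 and 4.93. Its ursolic acid values were 5.08, 5.14, 5.45 and 5.51. Control sample 1 reached the level of ursolic acid sample 1, so the groups overlapped, and 3 of 4 ursolic acid arrays lay above every control. The difference was 0.45 ± 0.13 (SE), or 1.36-fold (95% interval 1.11 to 1.68). It was 0.45 and 0.44 within the samples described as untreated and as treated, and 0.06 between groups taken from the description.

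Ms4a4d, which lies between Ms4a6b and Ms4a6d, had control values of 6.07, 6.20, 6.04 and 6.24 and ursolic acid values of 6.28, 6.51, 6.20 and 6.43. Samples 2 and 4 were the higher ones in both groups, which are the samples described as treated. The diet difference was 0.22 ± 0.09 (SE), or 1.16-fold (95% interval 1.02 to 1.33), and the difference between groups taken from the description was 0.20 ± 0.09. In the 4 samples whose description fits the title the difference was 0.42. Diet and description change together in those samples, so this value holds both differences and is not a larger diet difference. Ms4a4b, a T cell member that lies before Ms4a6c, had control values of 3.10, 3.48, 3.38 and 3.40 and ursolic acid values of 3.28, 3.55, 3.26 and 3.54. There the diet difference was 0.07 ± 0.10, and that between groups taken from the description, 0.24 ± 0.07, was larger.

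Ms4a2, the IgE receptor chain, was the only member with all ursolic acid values below the controls. It had 4.18, 4.23, 4.11 and 4.11 in control and 4.03, 4.10, 3.74 and 3.88 with ursolic acid. Ursolic acid sample 2 lay just below the lowest control, and sample 3 lay lowest. The difference was −0.22 ± 0.09 (SE), or 0.859 of control (95% interval 0.753 to 0.979). It was −0.26 within the samples described as untreated, −0.18 within those described as treated and 0.07 between groups taken from the description.

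Ms4a1, the CD20 gene, had control values of 3.59, 3.66, 3.79 and 3.65 and ursolic acid values of 3.83, 3.75, 3.60 and 3.64. The groups overlapped throughout, with a difference of 0.03 ± 0.08 (SE) and a 95% interval of −0.13 to 0.20. Ms4a3 had a difference of −0.10 ± 0.10, made of −0.26 within the samples described as treated and 0.05 within those described as untreated. Ms4a5 likewise changed sign between these classes, at −0.25 and 0.16, with −0.05 ± 0.11 overall. Ms4a10, Ms4a13 and Ms4a19 had differences of −0.12 ± 0.09, −0.03 ± 0.09 and −0.10 ± 0.07, and their groups overlapped. In each of these genes the 95% interval included 0.

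Of the 2 rows with several symbols, that of Ms4a7 and Ms4a14 had control values of 4.49, 4.55, 4.60 and 4.47 and ursolic acid values of 4.91, 4.89, 4.85 and 5.25. All ursolic acid arrays lay above all controls, with a difference of 0.45 ± 0.09 (SE) and a limma adjusted p of 0.188 over all rows. The row of Ms4a4c and Ms4a4d overlapped between groups, from 3.48 to 3.87 in control and from 3.22 to 4.08 with ursolic acid, at −0.18 ± 0.18. It thus differed in sign from the row of Ms4a4d alone.

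The 4 genes with higher values at an unadjusted limma p of 0.05, where 4.08% of all rows were, lay next to each other among the genes with a row of their own. This contrast chose the family, and whether the probes tell related members apart was not tested. Nothing is therefore read from their positions. The RefSeq table lists 21 Ms4a genes on chromosome 19, 12 of which had a row of their own. In that order the last 6 measured are Ms4a6c, Ms4a6b, Ms4a4d, Ms4a6d, Ms4a2 and Ms4a3, with differences of 0.45, 0.30, 0.22, 0.41, −0.22 and −0.10. The run of higher genes thus ended between Ms4a6d and Ms4a2, which are direct neighbours. The shared row of Ms4a7 and Ms4a14, with a difference of 0.45, belongs to genes that lie apart from this run. Between them and Ms4a6c lie Ms4a4a, with no row of its own, Ms4a4c, whose row shared with Ms4a4d stood at −0.18, and Ms4a4b, at 0.07. Among 4 measured genes before the cluster, Prpf19, Zp1, Ptgdr2 and Ccdc86, differences were −0.14 to −0.05. After it they were 0.04 for Oosp1, −0.07 for Cblif, 0.14 for Mrpl16 and −0.02 for Olfr1417. Gm8369, a gene between Ms4a6c and Ms4a6b that bears another name, had no row of its own. Positions come from another build than the arrays' mm9, so only the order of genes was used.

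**Figure D2:**
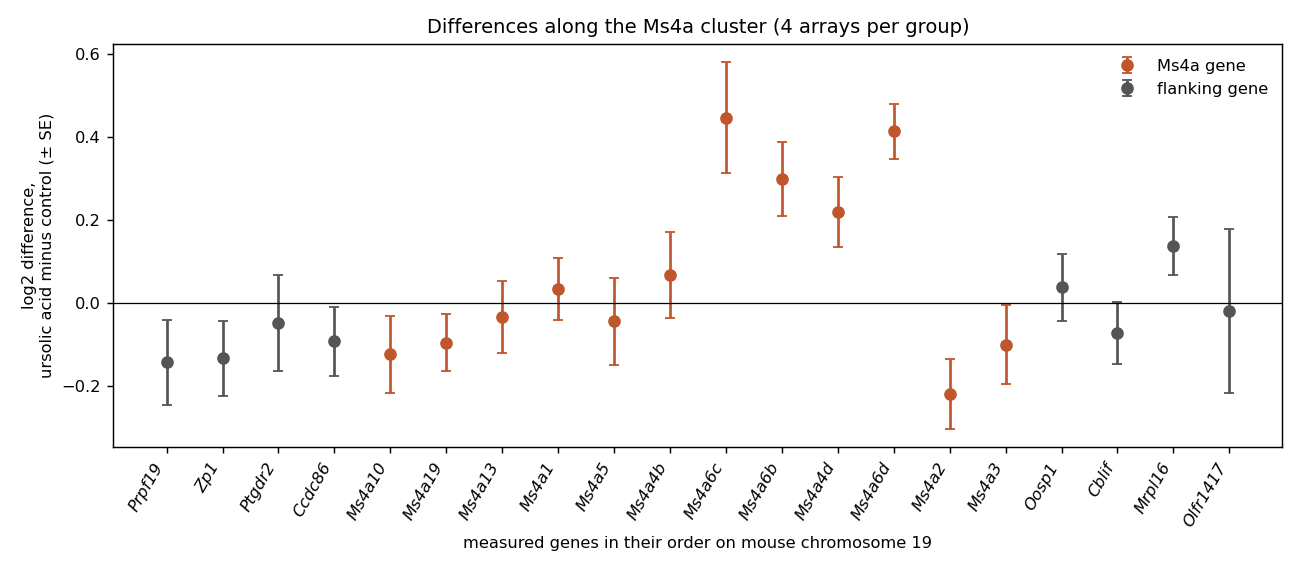
Log2 difference (ursolic acid minus control, points with SE, 4 arrays per group) of the measured Ms4a genes and 4 measured genes on each side, in their order on mouse chromosome 19. The 4 genes from Ms4a6c to Ms4a6d lie between 0.22 and 0.45, Ms4a2 beside them lies at −0.22, and the flanking genes lie between −0.14 and 0.14.

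Variation among arrays of the same group does not hold the diet difference, but it comes from the same 8 arrays and enters the p by which Ms4a6d was chosen, so it is given as a description too. Ms4a6d had the smallest within-group SD of the 12. The likeness of members was measured as the Pearson correlation of deviations from the group means over the 8 arrays, with no test. Only the mean of each diet group was removed. Differences between samples described as treated and as untreated stay in these deviations and enter every correlation below. Arrays share their pools across genes, and 8 arrays with 14859 other genes give many high values. The within-group SD of the members, 0.070 to 0.224 on the log2 scale, had a median of 0.127, beside 0.123 over all genes. Across the 66 pairs of members correlations ran from −0.96 to 0.85, with a median of −0.04.

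The highest was that of Ms4a6b with Ms4a6c, at 0.85 (Spearman 0.67). It was 0.79 among the controls and 0.94 among the ursolic acid arrays, and 0.73 to 0.96 when each array was left out in turn. Both were lowest among controls in sample 3 and highest among ursolic acid arrays in samples 3 and 4. Among all genes Ms4a6c was number 65 in likeness to Ms4a6b. Ms4a6d did not follow them, at 0.24 with Ms4a6b and 0.17 with Ms4a6c. The lowest correlation was that of Ms4a6c with Ms4a1, at −0.96, and Ms4a6b with Ms4a1 stood at −0.85. Ms4a4d with Ms4a4b gave 0.77, and both were higher in samples 2 and 4 of the ursolic acid group, which are described as treated.

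Within groups, macrophage markers had positive correlations with Ms4a6b and Ms4a6c on balance and negative ones with Ms4a6d, as a description. The median correlation with the 21 measured macrophage markers was 0.46 for Ms4a6b and 0.41 for Ms4a6c, where that with all genes was 0.00 and −0.01. For Ms4a6d it was −0.24, beside 0.04 with all genes, and for Ms4a2 it was −0.46, beside −0.03. Leaving out each array gave 0.42 to 0.62 for Ms4a6b, 0.35 to 0.60 for Ms4a6c, −0.42 to 0.00 for Ms4a6d and −0.64 to −0.25 for Ms4a2. Single macrophage markers took both signs. They ran from −0.55 to 0.83 with Ms4a6b, −0.64 to 0.98 with Ms4a6c, −0.89 to 0.62 with Ms4a6d and −0.74 to 0.64 with Ms4a2. Fibroblast markers, 10 measured, gave medians of the same signs as the macrophage medians. These were 0.44 for Ms4a6b, 0.56 for Ms4a6c, −0.46 for Ms4a6d and −0.52 for Ms4a2, so the pattern was not particular to macrophage markers. Muscle fibre markers shared these signs with smaller medians for Ms4a6b (0.33), Ms4a6c (0.24) and Ms4a2 (−0.35), and with −0.28 for Ms4a6d. Ms4a1 had a median of −0.19 with 12 B cell markers (−0.28 to −0.01 with each array left out). Ms4a2 had one of −0.11 with 12 mast cell markers (−0.25 to 0.08), whose sign thus turned.

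**Figure D3:**
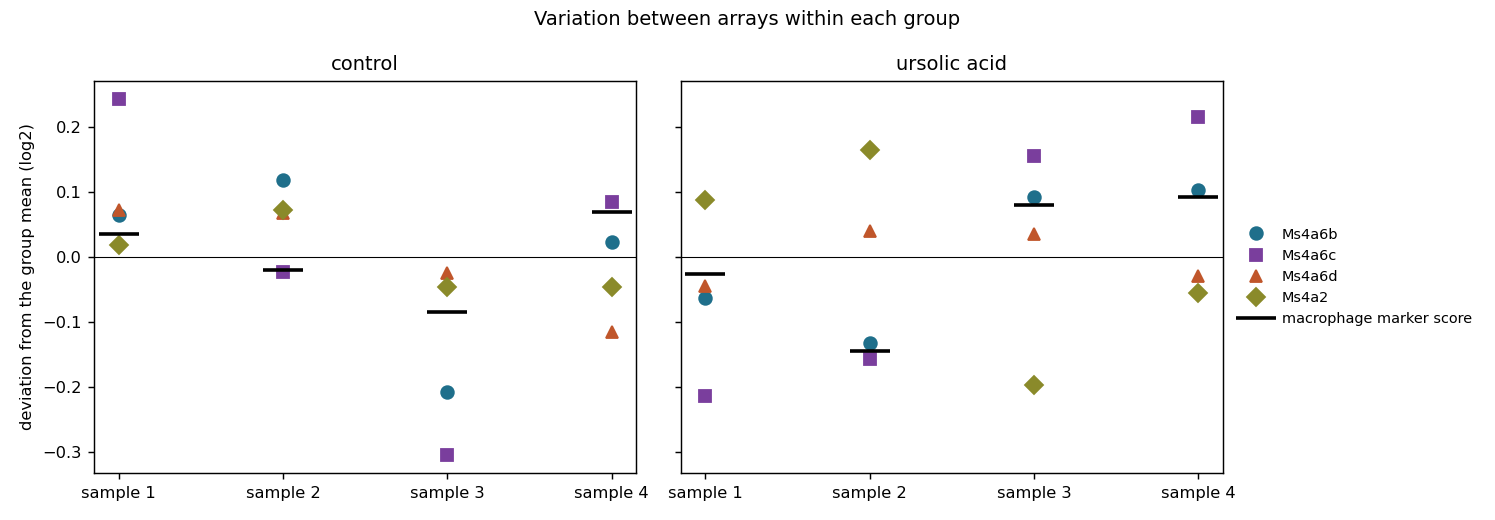
Deviation of each array from its group mean (log2) for Ms4a6b, Ms4a6c, Ms4a6d, Ms4a2 and the macrophage marker score, with the control arrays on the left and the ursolic acid arrays on the right. Ms4a6b and Ms4a6c lie low together in control sample 3 and high together in ursolic acid samples 3 and 4, and Ms4a6d does not share this order.

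The gene closest to Ms4a6c in these deviations was C1qb, a chain of complement C1q that macrophages make, at 0.98 (0.97 to 0.99 with each array left out), followed by Rhoj and Lor at 0.98 and 0.97. For Ms4a6b the closest were Phf5a, Gadd45g and Fbxl14, at 0.98, 0.94 and 0.94. For Ms4a6d they were Krt9, Slc35f6, Klhl5, Fut2, Chrnb2, Zfp341, Bub1, Htr6, Zc3hav1l and Slc23a1, at 0.98 down to 0.93, none of them in a list of leukocyte markers. Ms4a4d was closest to Hook3, Abca5 and Eif1ad (0.98, 0.98 and 0.97) and Ms4a2 to Akr1c21, Atxn7 and Nfs1 (0.97, 0.96 and 0.95). Ms4a1 was closest to Orai2, a calcium channel subunit, at 0.996. The closest genes of the other 6 members stood at 0.96 to 0.99.

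Markers of the cells that carry these genes were counted in the same fit, and none of their members passed an adjusted p of 0.05. Over all rows, 45.5% were higher with ursolic acid, and 4.08% were higher at an unadjusted p of 0.05. Of 21 macrophage markers 20 were higher with ursolic acid, 13 of them at an unadjusted p of 0.05, with a median difference of 0.30. Tyrobp, a myeloid signalling adaptor, differed by 0.69 ± 0.11 (SE), the mannose receptor Mrc1 by 0.65 ± 0.12, the transglutaminase F13a1 by 0.49 ± 0.10 and the scavenger receptor Cd163 by 0.42 ± 0.09. The summed log2 level of the 21 was 120.54 to 123.78 in control arrays and 124.99 to 129.95 with ursolic acid. These markers were thus higher in the same group as the Ms4a6 genes, whose median difference was 0.41. Within groups their median correlation was 0.46 with Ms4a6b and 0.41 with Ms4a6c, but −0.24 with Ms4a6d. The part of these markers in the Ms4a values was not tested. Monocyte and neutrophil markers had 8 of 14 higher, 3 at an unadjusted p of 0.05, with a median of 0.05. The 4 with the smallest p were the monocyte chemokine receptor Ccr2 at 0.61 ± 0.14, the calgranulin S100a9 at 0.61 ± 0.18, Plac8 at 0.43 ± 0.13 and, with the other sign, the neutrophil elastase gene Elane at −0.14 ± 0.07.

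B cell and mast cell markers are the lists for Ms4a1 and Ms4a2. The shares over all rows were again 45.5% higher and 4.08% higher at an unadjusted p of 0.05. Of 12 B cell markers 4 were higher and 8 lower, 0 of them at an unadjusted p of 0.05, with a median of −0.04 and summed levels of 59.6 to 61.9 in control and 59.3 to 61.9 with ursolic acid. Pax5, a B cell transcription factor, had a difference of −0.17 ± 0.08. Of 12 mast cell markers 7 were higher, 2 of them at an unadjusted p of 0.05, with a median of 0.03 and summed levels of 55.2 to 56.0 and 55.6 to 56.3. These were the mast cell carboxypeptidase Cpa3, with a difference of 0.25 ± 0.10 and the prostaglandin D synthase Hpgds, with 0.34 ± 0.11, the opposite sign to Ms4a2. The 5 lower markers included the transcription factor gene Gata2 at −0.16 ± 0.09 and the mast cell protease gene Mcpt1 at −0.10 ± 0.09, the same sign as Ms4a2. The partners and signalling genes of the IgE receptor, 12 measured, had 6 higher and a median of 0.00, with Syk, a kinase of this receptor, at 0.14 ± 0.08. Those of the B cell receptor and CD20, 9 measured, had 5 higher and a median of 0.00. In both lists 0 genes stood at an unadjusted p of 0.05. The lists share genes, Syk among them, so their counts are not independent.

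Of 11 other genes of membrane proteins with 4 passes, 8 were higher, 4 at an unadjusted p of 0.05, with a median of 0.19. For this list and those that follow, the shares over all rows were 45.5% higher and 4.08% higher at that p. Cd53, a tetraspanin of leukocytes, differed by 0.56 ± 0.12 (SE), and Tmem176b, of a family related to Ms4a, by 0.32 ± 0.09. The tetraspanins Tspan4 and Cd151, found in many cell types, differed by 0.28 ± 0.08 and 0.23 ± 0.07. Of 9 myeloid transcription factors 8 were higher, 1 at an unadjusted p of 0.05 (Stat6), with a median of 0.07, among them Spi1, the gene of PU.1, at 0.14 ± 0.12. T and NK cell markers had 8 of 13 higher with a median of 0.03, and dendritic cell markers 4 of 8 with a median of −0.01. Endothelial markers had 3 of 10 higher with a median of −0.05, and fibroblast markers 9 of 10, 4 at an unadjusted p of 0.05, with a median of 0.16, led by the proteoglycan gene Lum at 0.61 ± 0.11. With groups taken from the description, the macrophage median was −0.01.

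**Figure D4:**
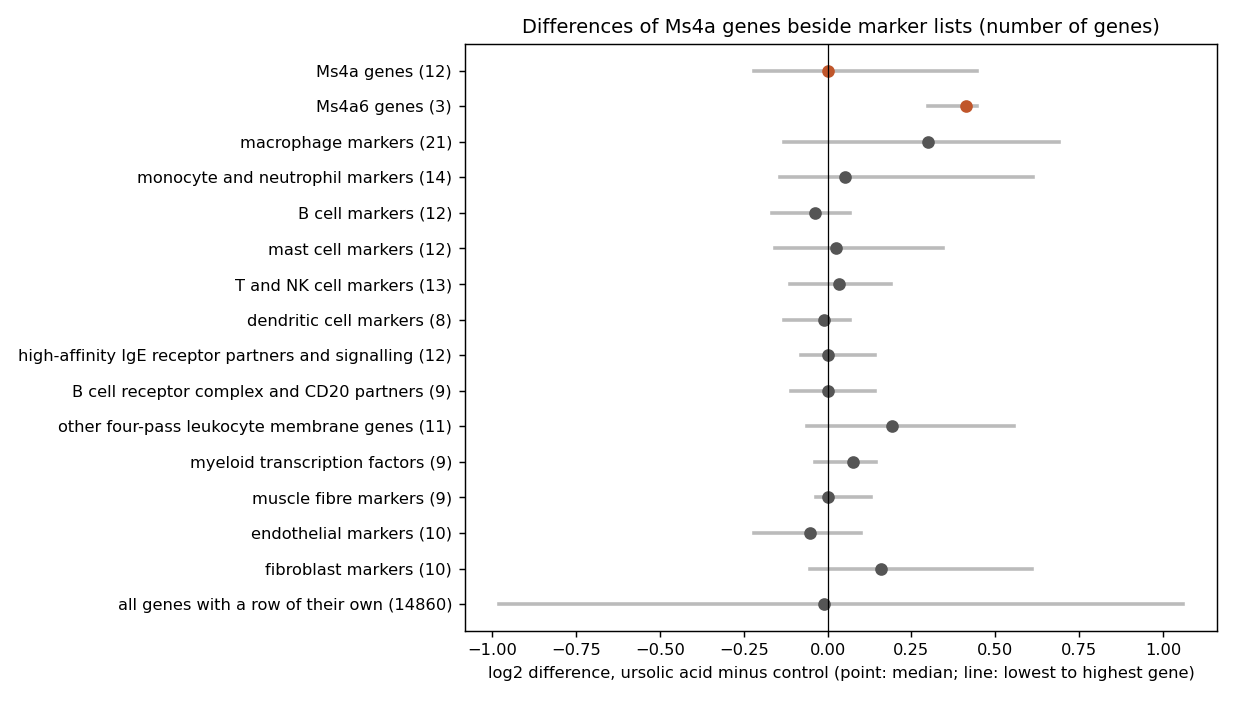
Median (point) and lowest to highest (line) log2 difference, ursolic acid minus control, for the 12 Ms4a genes, the 3 Ms4a6 genes and each marker list, with the number of genes in brackets. The median is 0.41 for the Ms4a6 genes, 0.30 for macrophage markers and −0.04 for B cell markers.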

How the data were processed

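Per the submitters' processing notes, the authors made the deposited log2 values with RMA (background correction, normalization between arrays, summary of probes) and named mm9 as the build, with software and row filters not given in the sources used here. RNA was extracted with TRIzol and amplified by SPIA, per the labels' protocols. Base 2 was inferred from the range of values.

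Of 16755 rows, 14996 carried 1 symbol. Symbols were updated by gene number through RefSeq GRCm38.p6 (14941 matched). The software was R 4.3.3 with limma 3.58.1: lmFit and eBayes on all rows, diet as the only term, two-sided p, adjusted by Benjamini-Hochberg across the rows, at 0.05. Promoters were searched and aligned with Biopython 1.88, globally first and then locally. The planned comparison of protein sequences and search for tyrosine motifs were not run, because no protein table was used here. Members and the 13 gene lists were chosen with earlier results of these data known. Some genes stand in more than 1 list, such as Syk and Spi1, so counts of different lists are not independent. Named were all members, in each list up to 4 genes with the smallest p (some left out here), the genes most alike in deviations (10 for Ms4a6d, 3 for others, without predicted or olfactory genes) and 4 measured genes on each side of the cluster. Acta1 was named after its values were seen.

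Same-numbered samples were not taken as pairs: their deviations correlated at 0.018 to 0.186. Alternatives were a replicate block, scaling, a level filter, variance models, array weights, left-out samples and the description. In simulated data for ursolic acid against control (16755 rows, 200 changed, 10 simulations), limma recovered 59.4% of changes of 0.5 and 93.5% of changes of 1 on the log2 scale. The simulated noise was normal and independent between rows, and all changes were increases. Deviations shared by rows of the same array were not simulated, so recovery in the real arrays may differ. Arrays have no depth, and their number limits precision.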

Additional observations from a re-analysis of the deposited data

Results flagged for a closer look

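A search for single samples far from their group covered 52 sets of 4 values (genes, list scores and array measures). It found 2, neither of them an Ms4a gene; about 1 set in 20 would be found by chance. The gap to the nearest sample, as a share of the group's range, was 0.921 for control sample 1, whose mean Spearman correlation with the rest was 0.977 beside 0.985 to 0.986. It was 0.898 for the endothelial marker score of ursolic acid sample 4 (0.066 beside −0.057 to −0.044).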

How the results depend on the processing

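The count of rows past an adjusted p of 0.05, 0 by limma, rose to 23 with array weights, 27 when the dimmer rows (mean below the median of all row means) were dropped, and 12 with a variance trend and robust moderation, and stayed at 0 in each of the other 16 alternatives. It was 0 with the replicate block too, where Ms4a6d had an adjusted p of 0.24. At an unadjusted p of 0.05, 1185 rows passed in the main fit by limma. With groups taken from the description 2098 did, which is more than between diets. Of the Ms4a genes, 1 passed with array weights, Ms4a6d at an adjusted p of 0.0495, and 0 in each other setting. Without the dimmer rows only Ms4a4d was tested, so 1 Ms4a gene was higher there. Otherwise 5 to 8 of 12 were higher, and 5 to 7 without each sample in turn. Leaving out each sample, Ms4a6d differed by 0.38 to 0.44, Ms4a6b by 0.23 to 0.34, Ms4a6c by 0.34 to 0.53, Ms4a4d by 0.17 to 0.27 and Ms4a2 by −0.27 to −0.15. Grouping by the description moved all but 1 of these 5, Ms4a4d, by more than the spread between arrays. Since that grouping is balanced for the diet in the title, a difference by title cancels there by design. No Ms4a gene had several rows of its own, so averaging rows was not run. Which of the contradictory labels is right was not tested, nor was the cause of differences between the description groups.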
